A study of Mus musculus with 8 samples.

Results

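The lipid barrier group comprised 9 genes, named for the enzymes and the transporter that build the lipid barrier of the epidermis, namely Alox12b, Aloxe3, Abca12, Elovl4, Elovl1, Cers3, Sptlc2, Ugcg and Smpd1. Every array probe annotated to these 9 symbols was taken, which gave 14 probes for 8 genes out of 16593 genes with a probe, and Cers3, the ceramide synthase for ultra-long acyl chains, had no probe and was not analysed here. Their transcripts were compared between mouse keratinocytes lacking type I keratins (Type I keratin KO, 4 arrays) and wild-type keratinocytes (4 arrays). Both genotypes were of the C57Bl6 strain, were isolated from embryonic skin late in gestation (E18.5) and were cultured to confluency in keratinocyte medium before RNA was taken and hybridised to Illumina arrays. The labels do not say how many embryos gave the cells or whether the cultures were separate, so each p-value reflects the spread of these samples alone, which may be technical.

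The outermost epidermis is sealed by lipid sheets rich in ceramides with unusually long acyl chains. Granular cells make these ceramides from a sphingoid base and an elongated fatty acid, add glucose to them, load them into lamellar granules and secrete them, after which lipoxygenases oxidise the linoleate they carry so that they can be fixed to the cornified envelope. Inherited loss of several of these genes causes ichthyosis in humans. In culture, barrier lipid genes are switched on as keratinocytes differentiate.

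The arrays of each genotype were numbered 1, 2, 3 and 1.1, and the labels describe 1.1 as a repeat of 1. In wild type the log2 differences between arrays 1 and 1.1 had an SD of 0.205, but KO array 1.1 lay near KO array 3 (SD 0.213) and far from KO array 1 (SD 0.640). KO 1.1 was therefore averaged with KO 3 and wild-type 1.1 with wild-type 1, which left 3 replicates per genotype. The deposited intensities, on a linear scale, were background-subtracted and shared 1 distribution, so that a value can be negative, and readings above 6.30 were treated as above background. The deleted keratins Krt10, Krt14, Krt16 and Krt17 read -6.48 to 9.28 on KO arrays, against 334 to 19131 on wild-type arrays. Of the keratinocyte markers other than Krt14, all 10 with a probe were above background on all 8 arrays, and their summed intensity was 25345 to 30897 on KO arrays and 31033 to 34036 on wild-type arrays. Summed endothelial markers reached 23.6 on KO arrays and 17.5 on wild-type arrays, and summed immune markers 13.95 on KO arrays and 18.1 on wild-type arrays.

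None of the 8 measured lipid barrier genes passed limma's test at an adjusted p under 0.05, and 1 of 8, Aloxe3, had an unadjusted p under 0.05, in the higher direction. Over all 9881 genes tested, 0.708% were called and 17.1% had an unadjusted p under 0.05 (8.45% higher and 8.68% lower). The members' count depended on how arrays were paired and on single replicates. With arrays averaged as labelled it was 4 of 8, all higher (Aloxe3, Elovl1, Elovl4 and Alox12b), against 20.1% of all genes. KO replicates 1 and 3 may then not be independent, because the array labelled a repeat of KO 1 lay near KO 3. Without KO replicate 1 the members' count was 3 of 8, all higher (Aloxe3, Elovl1 and Elovl4), against 14.1% of all genes. Over the other alternatives it was 1 or 2. The 70 genes called comprised 29 higher and 41 lower in KO (41.4% higher), and 53.5% of 99 were higher when arrays were centred on ribosomal genes. Of the 8 members, 5 were measured higher in KO and 3 lower, with a median log2 difference of 0.26 against 0.018 for all genes tested. Without KO replicate 3 the members' median was 0.065, with 4 higher and 4 lower. All differences are KO minus wild type on the log2(intensity + 16) scale, which understates the change of dim genes.

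The lipoxygenase pair gave the highest positive differences of the 8 members. Aloxe3 encodes the isomerase that turns the hydroperoxide made by the partner lipoxygenase into an epoxyalcohol. It read 276, 223, 227 and 231 on KO arrays 1, 2, 3 and 1.1, against 85.2, 150, 80.9 and 95.05 on wild-type arrays 1, 2, 3 and 1.1. Every KO array lay above every wild-type array. The KO replicates averaged 242 ± 29.0 and the wild-type replicates 107 ± 37.4 (SD, n = 3 each), and KO exceeded wild type by 1.11 ± 0.23 (SE) in log2, which is 2.15-fold, with a 95% interval of 0.57 to 1.64. It missed the threshold in limma (adjusted p = 0.0800), and permuting the 6 replicates (exact, two-sided) returned p = 0.1, the lowest that 3 against 3 can reach. The difference stayed between 0.86 and 1.34 over 18 alternative settings, with limma adjusted p values of 0.0215 to 0.303, and Aloxe3 passed in only 1 of them, with array weights.

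Alox12b encodes the lipoxygenase that acts first on the linoleate of acylceramides, and its gene is the direct neighbour of Aloxe3 among protein-coding genes. It read 56.7, 64.5, 346 and 283 on KO arrays 1, 2, 3 and 1.1, against 31.6, 80.1, 24.7 and 25.1 on wild-type arrays 1, 2, 3 and 1.1. The genotypes overlapped, because wild-type array 2 read above KO arrays 1 and 2, while KO arrays 3 and 1.1 stood far above all others. The KO replicates averaged 145 ± 146 and the wild-type replicates 44.3 ± 31.0 (SD, n = 3 each), and the log2 difference of 1.16 ± 0.61 (SE) did not pass (limma adjusted p = 0.388). Without KO replicate 3 it was 0.46. Although the differences of the 2 lipoxygenases were of like size, Aloxe3 lay above the wild-type range on all 4 KO arrays and Alox12b only on KO arrays 3 and 1.1.

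**Figure D1:**
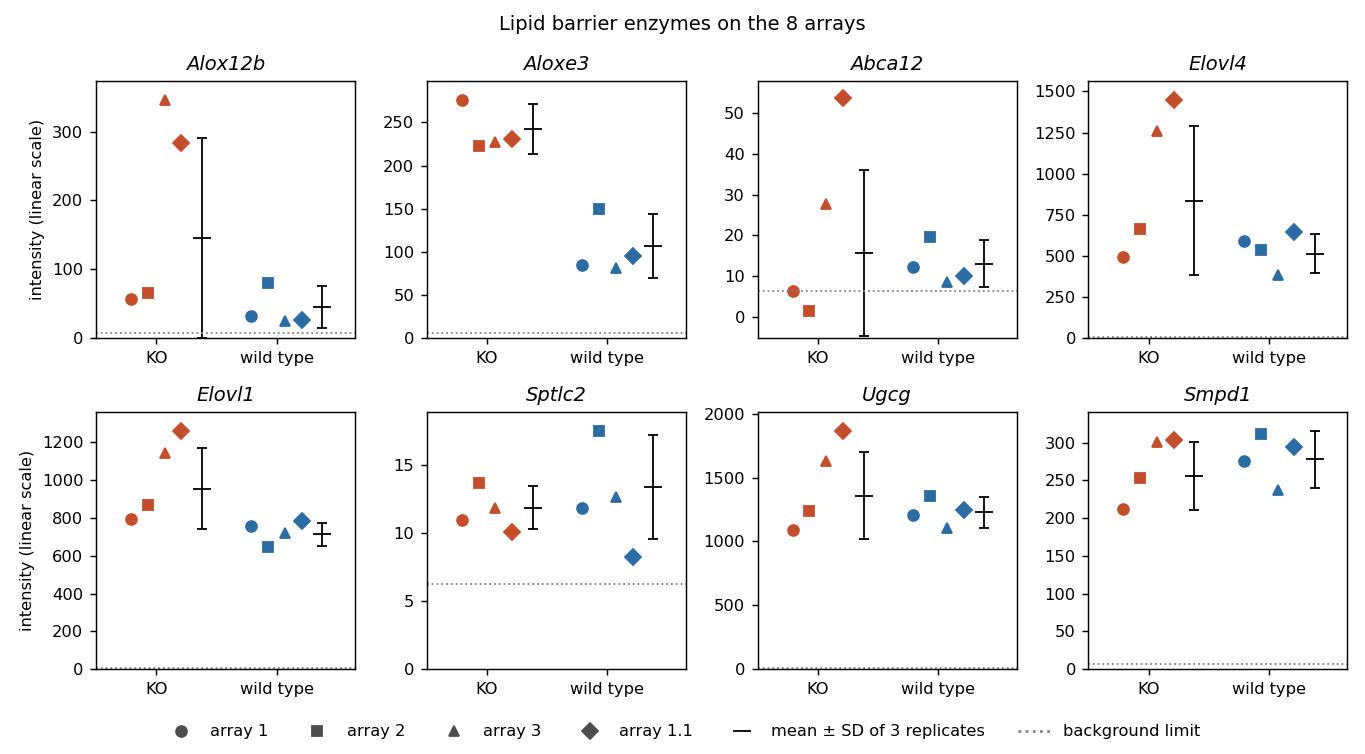
Intensity (linear scale) of the 8 measured lipid barrier genes on each array, KO left and wild type right in each panel, with 1 symbol per array number; black bars give the mean ± SD of 3 replicates and the dotted line the background limit of 6.30. Aloxe3 separated the genotypes on all 8 arrays, at 223 to 276 in KO and 80.9 to 150 in wild type, whereas KO arrays 3 and 1.1 carried the high KO values of Alox12b, Abca12, Elovl4 and Ugcg.

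Fatty acid elongation is the step that gives barrier ceramides their length. Elovl4 encodes the elongase of the ultra-long chains found in acylceramides. It read 493, 665, 1258 and 1447 on KO arrays 1, 2, 3 and 1.1, against 592, 539, 386 and 647 on wild-type arrays 1, 2, 3 and 1.1. KO array 1 lay within the wild-type range and KO array 2 only just above it, with KO arrays 3 and 1.1 the highest. The KO replicates averaged 836 ± 453 and the wild-type replicates 514 ± 118 (SD, n = 3 each). The log2 difference was 0.58 ± 0.37 (SE; limma adjusted p = 0.470), and 0.18 without KO replicate 3.

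Elovl1 encodes the elongase of saturated very-long-chain fatty acids, which works in many tissues. Its brightest probe read 794, 869, 1141 and 1259 on KO arrays 1, 2, 3 and 1.1, against 755, 648, 722 and 783 on wild-type arrays 1, 2, 3 and 1.1. The genotypes did not overlap, but KO array 1 lay only just above wild-type array 1.1. The KO replicates averaged 954 ± 215 and the wild-type replicates 713 ± 60.9 (SD, n = 3 each). Their log2 difference of 0.39 ± 0.19 (SE) did not pass (limma adjusted p = 0.345). The 3 other Elovl1 probes differed by 0.28, 0.11 and 0.055 in a fit over all probes, all positive and smaller than the first. Their KO and wild-type arrays overlapped. Elovl1 and Aloxe3 were the 2 of 8 members whose KO replicates all lay above the wild-type replicates, as did 11.6% of all genes tested, and no member had all KO replicates below.

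The sphingolipid enzymes Sptlc2, Ugcg and Smpd1 had measured log2 differences of -0.070, 0.12 and -0.12. Their 95% intervals reached from -0.54 to 0.60, so moderate changes are not excluded. Sptlc2, a catalytic subunit of serine palmitoyltransferase, which makes the sphingoid base, was dim. It read 10.9, 13.7, 11.9 and 10.1 on KO arrays 1, 2, 3 and 1.1, against 11.8, 17.5, 12.7 and 8.25 on wild-type arrays 1, 2, 3 and 1.1. The KO range lay inside the wild-type range, and the log2 difference was -0.070 ± 0.15 (SE) with a 95% interval of -0.43 to 0.29 (limma adjusted p = 0.864). At this signal, close to background, a moderate change may not show.

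Ugcg encodes glucosylceramide synthase, which adds the glucose that barrier ceramides carry inside lamellar granules. It read 1092, 1238, 1629 and 1864 on KO arrays 1, 2, 3 and 1.1, against 1205, 1352, 1103 and 1245 on wild-type arrays 1, 2, 3 and 1.1. KO arrays 3 and 1.1 exceeded all wild-type arrays and KO array 1 lay below them. The KO replicates averaged 1357 ± 342 and the wild-type replicates 1227 ± 124 (SD, n = 3 each). The log2 difference was 0.12 ± 0.20 (SE) with a 95% interval of -0.36 to 0.60 (limma adjusted p = 0.813), and it was -0.072, of the opposite sign, without KO replicate 3.

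Smpd1 encodes acid sphingomyelinase, which releases ceramide from sphingomyelin. Its brightest probe read 213, 253, 301 and 303 on KO arrays 1, 2, 3 and 1.1, against 276, 311, 237 and 294 on wild-type arrays 1, 2, 3 and 1.1. The ranges overlapped nearly throughout. The KO replicates averaged 256 ± 44.8 and the wild-type replicates 278 ± 37.5 (SD, n = 3 each), and the log2 difference was -0.12 ± 0.18 (SE) with a 95% interval of -0.54 to 0.31 (limma adjusted p = 0.792). The 2 other Smpd1 probes differed by -0.13 and -0.21, the second of them above background on 2 KO and 3 wild-type arrays. In the fit over all probes the 95% intervals of these 2 probes reached -0.68 and -0.57.

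Abca12 encodes the transporter that moves glucosylceramides into lamellar granules. Its brighter probe read 6.41, 1.46, 27.7 and 53.7 on KO arrays 1, 2, 3 and 1.1, against 12.3, 19.6, 8.51 and 10.1 on wild-type arrays 1, 2, 3 and 1.1. KO arrays 3 and 1.1 lay above every wild-type array and KO arrays 1 and 2 below every one, KO array 2 under the background limit. The second probe also had KO arrays 3 and 1.1 above all others and KO arrays 1 and 2 under the limit, at 2.28, 4.82, 18.4 and 22.2 on KO arrays 1, 2, 3 and 1.1, against 12.7, 11.7, -0.65 and 7.09 on wild-type arrays 1, 2, 3 and 1.1. The difference between the genotypes was -0.045 ± 0.41 (SE) for the brighter probe (limma adjusted p = 0.972) and 0.11 for the second, and it was -0.54 without KO replicate 3. For the brighter probe the genotype mean thus averaged KO replicates on opposite sides of wild type, with KO arrays 1 and 2 near or under the background limit. The second probe did not share the lower side, because wild-type array 3, at -0.65, lay below KO arrays 1 and 2.

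**Figure D2:**
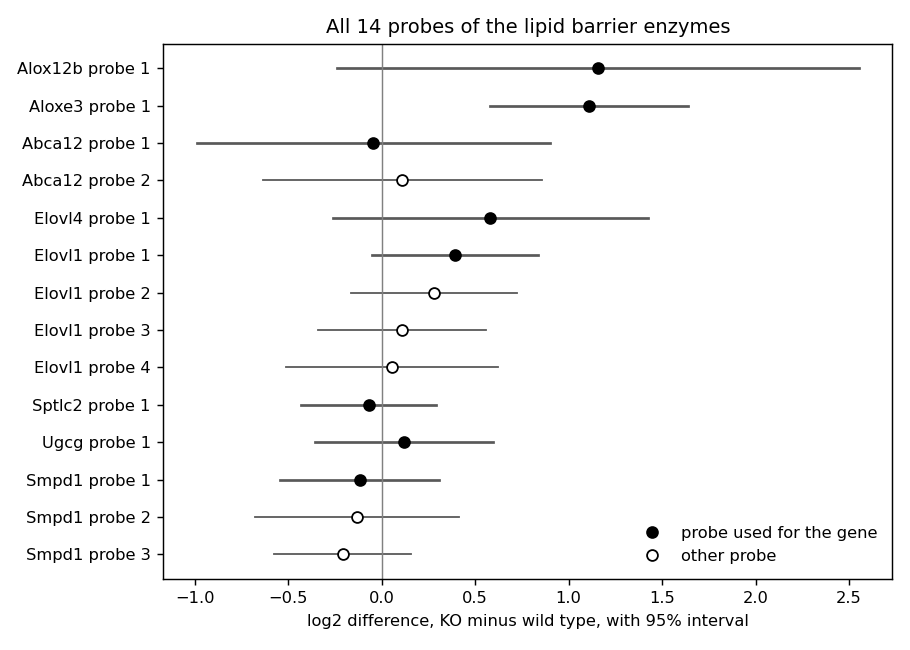
Log2 difference, KO minus wild type, of all 14 probes with its 95% interval, from a limma fit over all probes; filled points mark the probe used for each gene. Aloxe3 alone has an interval that does not reach 0, and the 4 Elovl1 probes run from 0.055 to 0.39.

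KO replicate 3 was the highest of the 6 replicates for 5 of the 8 members, Alox12b, Abca12, Elovl4, Elovl1 and Ugcg, and for 15.3% of all genes tested. Its intensity was 5.17 times the mean of KO replicates 1 and 2 for Alox12b, 2.33 times for Elovl4, 1.496 times for Ugcg and 1.44 times for Elovl1. Aloxe3 and Sptlc2 did not share this, at 0.919 and 0.889 times. On the log2 scale the excess of KO replicate 3 over KO replicates 1 and 2 was 2.11 for Alox12b, a value that 98.8% of all genes tested lay below, 1.48 for Abca12 (97.6%) and 1.21 for Elovl4 (96.5%). These are descriptions of 1 replicate, measured on 2 arrays.

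Proteins of the granular layer, the cells in which barrier lipids are made, were also mostly highest in KO replicate 3, for 8 of 13 genes tested (61.5%), with Krt1, Krt10, Dsc1, Klk5 and Klk7 the exceptions. The mean log2 level of 12 such genes, Krt10 left out because it was deleted, was 6.75, 6.87 and 9.15 in KO replicates 1, 2 and 3, against 8.08, 7.84 and 7.03 in wild-type replicates 1, 2 and 3. Of the 12 genes, 7 lay below every wild-type replicate in both KO replicates 1 and 2 (58.3%), as did 18.9% of all genes tested. The next 2 genes were chosen after their values were seen and had the largest positive differences of the list. In that list 9 of 13 genes were negative, the deleted Krt10 among them (median -0.34). The cornified envelope protein Lor read 227, 266 and 3034 in KO replicates 1, 2 and 3, against 261, 375 and 167 in wild-type replicates 1, 2 and 3. Another envelope protein, Ivl, read 105, 132 and 793 in KO replicates 1, 2 and 3, against 81.8, 57.9 and 32.2 in wild-type replicates 1, 2 and 3. KO replicate 3 stood far above all others for both genes, while KO replicates 1 and 2 lay within the wild-type range for Lor and above it for Ivl.

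Of the list's 13 tested genes the only call was Krt10, which fell by 5.36 (log2), and 3 of 13 had an unadjusted p under 0.05. Markers of other cell types were also summed. Summed melanocyte markers were 357 and 417 on KO arrays 3 and 1.1 and 1614 and 1231 on KO arrays 1 and 2, against 916 to 3469 on wild-type arrays, with 6 of 6 markers with a probe above background on at least 1 array. Summed sebocyte or adipocyte markers were 80.2 and 81.9 on KO arrays 3 and 1.1 and 26.7 and 29.4 on KO arrays 1 and 2, against 22.8 to 75.8 on wild-type arrays, with Plin1, Scd3 and Awat2 not above background on any array. Most of this contrast among KO arrays came from Cidea, at 41.0 and 37.1 on KO arrays 3 and 1.1 and 2.76 and 1.88 on KO arrays 1 and 2. Adipoq and Fabp4 went the same way and Mc5r the other way. Summed fibroblast markers were 247 and 315 on KO arrays 3 and 1.1 and 588 and 289 on KO arrays 1 and 2, against 75.2 to 1180 on wild-type arrays. The fibroblast markers disagreed among KO arrays. Thy1 read 247 on KO array 2 and 16.4 and 27.0 on KO arrays 3 and 1.1. Dcn went the other way, at 13.7 on KO array 2 and 155 and 190 on KO arrays 3 and 1.1. The part of these other cell types in the members' values was not tested. In such bulk cultures, a different share of granular cells and a different amount of RNA per cell cannot be told apart, for higher or lower values.

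**Figure D3:**
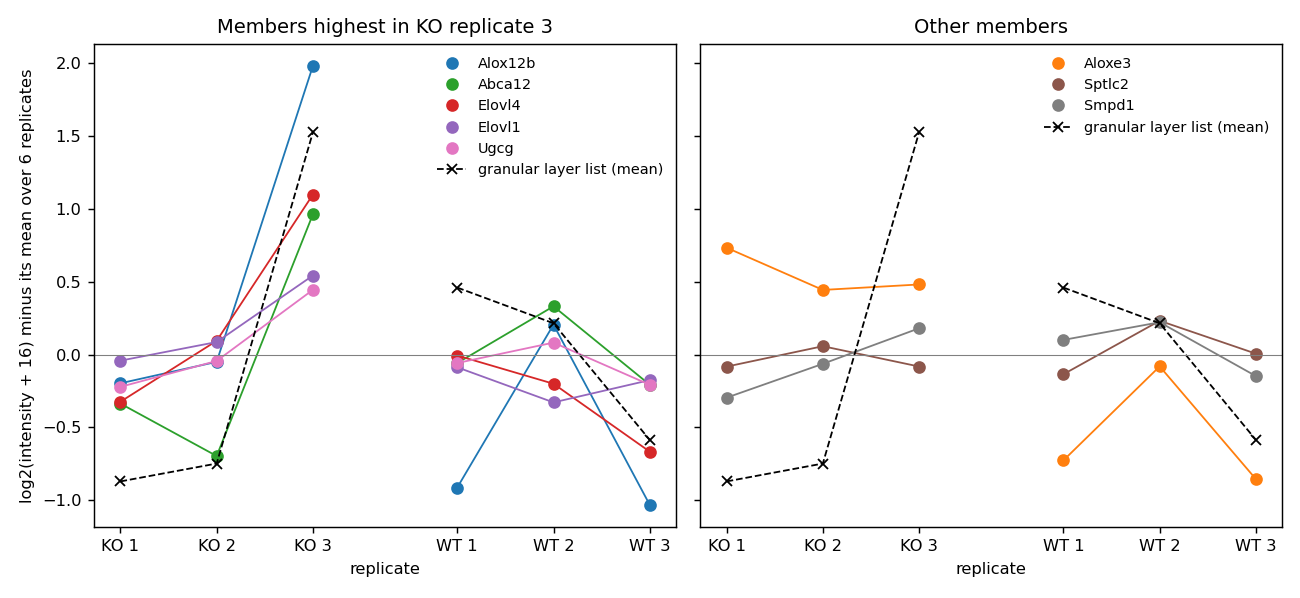
Log2(intensity + 16) of each member minus its mean over the 6 replicates, KO replicates left and wild-type replicates right, for the 5 members highest in KO replicate 3 (left panel) and the other 3 (right panel); the dashed line is the mean of 12 granular layer genes, and lines only join the points of a gene. Alox12b, Abca12 and Elovl4 stand high in KO replicate 3 together with the granular layer list, and Aloxe3 stands high in all 3 KO replicates.

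The promoters of the 5 members highest in KO replicate 3 are given to show which motif letters they hold, Elovl1 with 2 start sites. Each line holds the 250 bases before the start site from RefSeq (GRCm38.p6), 5′ to 3′ on the gene's strand, with capitals marking motif matches on either strand.
Alox12b, chr11:69156822-69157071, plus strand: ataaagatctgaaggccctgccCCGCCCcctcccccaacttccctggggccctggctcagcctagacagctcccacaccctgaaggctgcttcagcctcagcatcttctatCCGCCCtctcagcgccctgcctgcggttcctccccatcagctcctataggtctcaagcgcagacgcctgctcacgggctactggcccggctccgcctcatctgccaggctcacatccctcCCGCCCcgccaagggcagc
Abca12, chr1:71414911-71415160, minus strand: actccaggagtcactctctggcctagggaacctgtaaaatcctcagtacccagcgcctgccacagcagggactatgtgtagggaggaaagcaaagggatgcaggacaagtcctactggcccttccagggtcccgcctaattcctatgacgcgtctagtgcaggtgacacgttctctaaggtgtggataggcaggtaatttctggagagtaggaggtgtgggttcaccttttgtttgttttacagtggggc
Elovl4, chr9:83806306-83806555, minus strand: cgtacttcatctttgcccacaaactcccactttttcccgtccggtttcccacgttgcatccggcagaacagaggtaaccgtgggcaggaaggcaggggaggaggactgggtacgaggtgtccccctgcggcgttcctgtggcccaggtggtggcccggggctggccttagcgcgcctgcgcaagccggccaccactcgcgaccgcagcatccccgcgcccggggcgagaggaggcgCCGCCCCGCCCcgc
Elovl1, chr4:118427843-118428092, plus strand: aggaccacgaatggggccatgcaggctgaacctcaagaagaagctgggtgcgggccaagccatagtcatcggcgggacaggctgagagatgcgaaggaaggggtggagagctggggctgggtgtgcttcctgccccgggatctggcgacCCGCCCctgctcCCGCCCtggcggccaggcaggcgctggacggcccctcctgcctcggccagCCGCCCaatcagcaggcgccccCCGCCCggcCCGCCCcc
Elovl1, chr4:118429451-118429700, plus strand: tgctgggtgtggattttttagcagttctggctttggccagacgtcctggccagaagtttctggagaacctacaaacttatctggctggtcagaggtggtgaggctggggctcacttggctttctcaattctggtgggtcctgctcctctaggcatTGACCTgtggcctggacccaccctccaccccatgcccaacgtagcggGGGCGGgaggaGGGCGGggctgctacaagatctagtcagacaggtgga
Ugcg, chr4:59189300-59189549, plus strand: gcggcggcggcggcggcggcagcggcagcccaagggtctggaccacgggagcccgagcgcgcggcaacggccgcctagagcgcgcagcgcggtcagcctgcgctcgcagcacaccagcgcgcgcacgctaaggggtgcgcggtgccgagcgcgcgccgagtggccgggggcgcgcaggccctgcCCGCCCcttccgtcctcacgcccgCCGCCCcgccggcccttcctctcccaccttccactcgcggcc
The GC box GGGCGG, bound by Sp and Klf factors, occurred 3 times before Alox12b, 2 times before Elovl4, 5 and 2 times in the windows of Elovl1, 2 times before Ugcg and not before Abca12. It also occurred before Sptlc2 (2 times) and Smpd1 (4 times), which were not highest in KO replicate 3, and 32.7% of 32851 mouse promoters of this length held at least 1 match. Overlapping matches share letters, as in Elovl4. The nuclear receptor half-site AGGTCA (14% of promoters) occurred in the second Elovl1 window and before Smpd1 and Cers3. None of the printed windows held the AP-1 site TGANTCA (6.75% of promoters), the Grainyhead-like site AACCNGTT (1.79%) or TATAAA (12.4%), all read on both strands. RefSeq promoter entries were found for 8 of the 9 genes. Aloxe3 had none, so its promoter was not searched.

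For each member, the other gene whose log2 values followed it most closely was found among 7744 genes above background on all 8 arrays, by Pearson's r over the 6 replicates. With 6 points and so many genes some high r will be found, so these are descriptions. Aloxe3 was closest to Rhog, a small GTPase (r = 0.99), which read 474, 417 and 418 in KO replicates 1, 2 and 3, against 296, 346 and 288 in wild-type replicates 1, 2 and 3. Abca12 was closest to Gdpd1 (r = 0.99), which read 65.3, 45.7 and 206 in KO replicates 1, 2 and 3, against 97.1, 131 and 67.0 in wild-type replicates 1, 2 and 3. The others were Glrp1 for Alox12b, at only 10.9 to 16.8 in all replicates, Slc35b1 for Elovl4, Pdzrn3 for Elovl1, Bckdhb for Sptlc2, Tmed3 for Ugcg and Cltb for Smpd1, with r of 0.98 to 1.00.

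The rest of the pathway was followed through 80 further genes of barrier lipid synthesis, turnover, transport and control. A probe was present for 74 of them and 57 were bright enough to test. None of the 57 passed limma's test, against 0.708% of all genes, and 13 (22.8%) had an unadjusted p under 0.05, 6 higher and 7 lower, against 17.1% of all genes. The median log2 difference was -0.11, against 0.018 for all genes. Of the 17 genes not tested, 11 were not above background on any array, among them the lipoxygenases Alox12e, Alox8, Alox15 and Alox5, the elongases Elovl2 and Elovl3, and the nuclear receptors Ppara and Ppard.

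In the pathway that oxidises acylceramides, 0 of 5 tested genes had an unadjusted p under 0.05. Abhd5, a lipase co-activator needed for acylceramide synthesis, read 376 ± 119 in KO cells, against 508 ± 107 in wild-type cells (SD, n = 3 each), and Alox12, the platelet-type lipoxygenase, 19.5 ± 20.9 in KO cells, against 23.4 ± 6.23 in wild-type cells. Of 14 genes of fatty acid elongation and modification, 2 had an unadjusted p under 0.05, both lower, against 17.1% of all genes. Hacd2, a dehydratase of the elongation cycle, read 34.4 ± 6.45 in KO cells, against 56.6 ± 6.81 in wild-type cells, and the desaturase Scd2 97.8 ± 105 in KO cells, against 251 ± 87.9 in wild-type cells (SD, n = 3 each). Neither passed over all genes, with limma adjusted p of 0.155 for Hacd2 and 0.250 for Scd2.

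Among 10 genes of sphingoid base and ceramide synthesis, 4 had an unadjusted p under 0.05, 2 in each direction, against 17.1% of all genes. Ormdl3, an inhibitor of serine palmitoyltransferase, read 187, 161 and 150 in KO replicates 1, 2 and 3, against 293, 255 and 268 in wild-type replicates 1, 2 and 3. The replicates did not overlap, and its log2 difference was -0.66 ± 0.15 (SE; limma adjusted p = 0.0951). With arrays averaged as labelled the limma adjusted p was 0.0367, but KO replicates 1 and 3 may then not be independent. Cers6, a ceramide synthase for shorter acyl chains, read 55.2, 83.0 and 63.7 in KO replicates 1, 2 and 3, against 24.7, 34.1 and 41.3 in wild-type replicates 1, 2 and 3. These too did not overlap, at a log2 difference of 0.75 ± 0.19 (SE; limma adjusted p = 0.116). Of 17 genes of glucosylceramide and sphingomyelin turnover, 5 had an unadjusted p under 0.05, 3 higher and 2 lower, against 17.1% of all genes. Cert1, which carries ceramide to the Golgi for sphingomyelin synthesis, read 181 ± 24.1 in KO cells, against 99.6 ± 31.0 in wild-type cells, and the neutral sphingomyelinase Smpd2 45.2 ± 9.85 in KO cells, against 82.3 ± 20.1 in wild-type cells (SD, n = 3 each). Their limma adjusted p values were 0.133 for Cert1 and 0.149 for Smpd2.

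Of 7 transport and lamellar granule genes, 1 had an unadjusted p under 0.05, against 17.1% of all genes. Vps33b, a tethering protein of granule formation, read 216 ± 7.72 in KO cells, against 170 ± 7.97 in wild-type cells, and the vesicle GTPase Rab11a 108 ± 30.2 in KO cells, against 149 ± 17.1 in wild-type cells (SD, n = 3 each). Of 4 nuclear receptors and barrier regulators tested, 1 had an unadjusted p under 0.05, against the same 17.1%. Zfp750, a transcription factor of terminal differentiation, read 452, 398 and 972 in KO replicates 1, 2 and 3, against 1255, 1220 and 1137 in wild-type replicates 1, 2 and 3, and Klf4 read 872 ± 253 in KO cells, against 1128 ± 268 in wild-type cells (SD, n = 3 each). KO replicates 1 and 2 lay far below wild type for Zfp750, with KO replicate 3 nearer to it.

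KO replicate 3 was singled out here after its high values for members and granular layer genes had been seen, so what follows is a description. Without KO replicate 3 the wider list looked different. Of its 57 genes, 28 (49.1%) then had an unadjusted p under 0.05, 7 higher and 21 lower, against 23% of all genes, and 4 (7.02%) were called by limma, against 2.67% of all genes. The 4, named after their values were seen, were the sphingomyelin synthase Sgms2, higher by 1.63 ± 0.17 (SE), and Zfp750, Scd2 and Scd1, which differed by -1.47 ± 0.16, -2.33 ± 0.35 and -1.98 ± 0.36. With all replicates the same 4 genes differed by 1.11, -1.08, -1.60 and -0.90. The list's median was -0.21 without KO replicate 3, against 0.037 for all genes. None of the 8 members was called in that fit, and 2 of 8 had an unadjusted p under 0.05, 1 in each direction. Without KO replicate 1, 8 of the 57 wider-list genes had an unadjusted p under 0.05, against 14.1% of all genes. Without KO replicate 2 it was also 8 of 57, against 12.6% of all genes. In these 2 fits 0 of 57 were called, against 11 and 9 of 9881 genes.

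**Figure D4:**
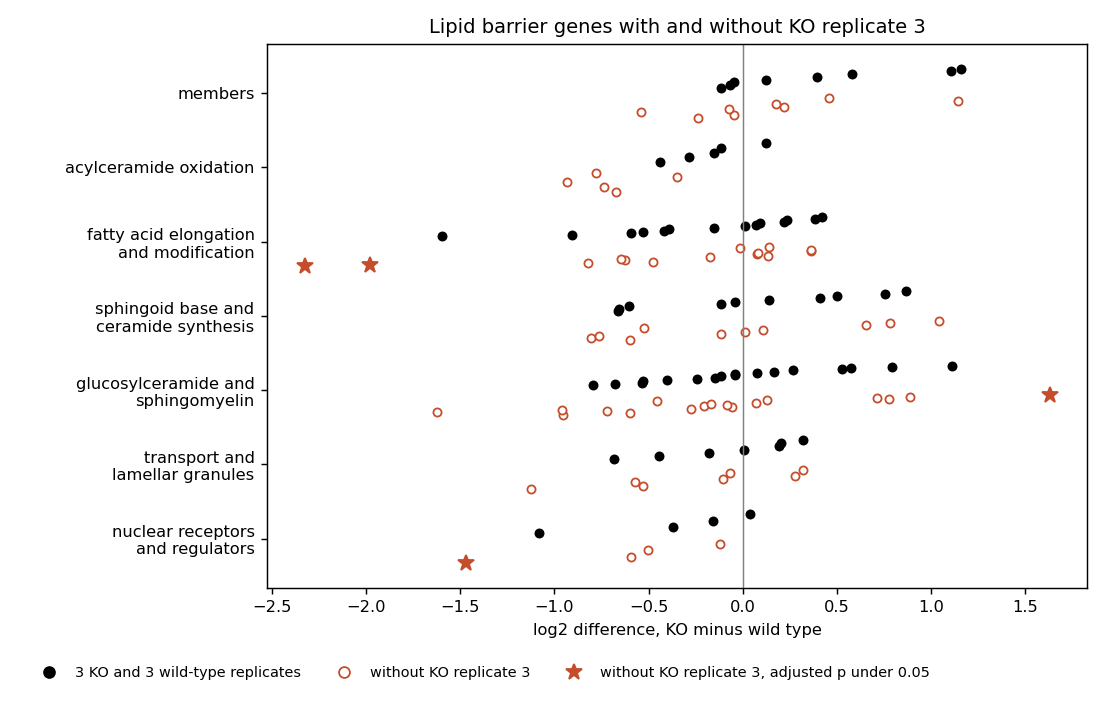
Log2 difference, KO minus wild type, of each tested member and pathway gene by group, with all replicates (black) and without KO replicate 3 (open; stars mark a limma adjusted p under 0.05). Leaving out KO replicate 3 moves the median of the 57 pathway genes to -0.21, against -0.11 with it, and the 4 stars are Scd2, Scd1, Sgms2 and Zfp750. KO replicate 3 was singled out after its high values for members and granular layer genes had been seen.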

How the data were processed

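Transcripts were measured on 8 Illumina arrays. The deposited table holds 1 intensity per probe on a linear scale for 25697 probes, and the values show background subtraction and normalization to a shared distribution. For the authors' upstream steps, the sources used here give no tool or method. A table of non-normalized signals was not used, because its 16 value columns match no sample label.

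Probe symbols came from the platform annotation (23978 probes with 1 symbol, 0 with several, 1719 with none). The background limit was the value that 5% of the negative readings, mirrored around 0, exceeded. Probes above it on at least 3 arrays were kept, 16 was added before log2, and the brightest probe per gene was tested. The 2 close pairs of arrays were averaged, and limma 3.58.1 in R 4.3.3 (lmFit, eBayes, Benjamini-Hochberg over 9881 genes, threshold 0.05) compared 3 KO with 3 wild-type replicates. The fit was tested on simulated data. The named genes were all members, the called genes of each list or else the 2 with the smallest p, and each member's closest gene. Members and lists were chosen with earlier results of these data known. Alternatives covered array pairing, a replicate block, offset, filters, probe choice, prior, weights, centring and each replicate left out. The number of arrays limits the precision. Figures used matplotlib 3.10.9.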

Additional observations from a re-analysis of the deposited data

How the results depend on the processing

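Over 18 alternatives, 130 of 143 member differences kept their direction and side of the threshold, 12 changed sign and 1 passed. Aloxe3 passed with array weights (1.15, adjusted p = 0.0215). Abca12 read 0.12 with arrays averaged as labelled, 0.0085 and 0.024 with offsets of 32 and 64, 0.033 as the mean of its probes and 0.0018 centred on ribosomal genes, and Sptlc2 0.040 with array weights. Leaving out each replicate gave -0.54 to 0.29 for Abca12, -0.16 to 0.029 for Sptlc2, -0.072 to 0.26 for Ugcg and -0.24 to 0.00023 for Smpd1, and 0.065 to 0.39 for the members' median. Calls over all genes were 261 with arrays averaged as labelled, 940 with array weights, 21 with the replicate block and 5 to 264 with 1 replicate left out (5 without WT replicate 1, 264 without KO replicate 3), against 70. Members called were 1 of 8 with array weights, against 940 of 9881 genes, and 0 to 0 with 1 replicate left out. Wider-list calls were 1 of 57 as labelled (Ormdl3), against 261 of 9881 genes. With arrays averaged as labelled, KO replicates 1 and 3 may not be independent. Wider-list calls were 8 of 57 with array weights, against 940 of 9881 genes, and 0 to 4 with 1 replicate left out. The cause was not tested. The replicate numbers are not shown to pair the samples: same-numbered deviations correlated at 0.056, 0.025 and -0.35, and no member was called with the replicate block (Aloxe3 adjusted p = 0.179). Dim genes such as Sptlc2 and Abca12 are limited by signal over background.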

Other observations

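Of the 57 tested pathway genes, 7 (12.3%) lay below every wild-type replicate in KO replicates 1 and 2 and above every one in KO replicate 3, namely Abca7, Acer1, Alox12, Cyp4f39, Gltp, Scd1 and Sdr9c7, and 248 of all 9881 genes tested (2.51%) did so. This pattern was looked for after the values were seen and was not tested. Values follow for 3 of the 7. Sdr9c7, a dehydrogenase acting on oxidised acylceramides, read -0.42, -1.39 and 82.4 in KO replicates 1, 2 and 3, against 4.83, 22.5 and 5.57 in wild-type replicates 1, 2 and 3. Acer1, the alkaline ceramidase of the epidermis, read -2.97, 0.43 and 125 in KO replicates 1, 2 and 3, against 34.3, 47.0 and 12.9 in wild-type replicates 1, 2 and 3. Its KO replicates 1 and 2 were under the background limit. For Sdr9c7, KO replicates 1 and 2 and wild-type replicates 1 and 3 were under it, so their order may be noise. Cyp4f39, the mouse counterpart of the human hydroxylase of acylceramide fatty acids, read 16.5, 13.0 and 140 in KO replicates 1, 2 and 3, against 45.8, 56.5 and 29.2 in wild-type replicates 1, 2 and 3. Pnpla1 did not show the pattern, at 10.4, 15.2 and 30.5 in KO replicates 1, 2 and 3, against 27.3, 28.0 and 9.50 in wild-type replicates 1, 2 and 3. Sdr9c7, Acer1 and Cyp4f39 did not pass limma's test with all replicates (adjusted p of 0.954, 0.8003 and 0.930) or without KO replicate 3 (0.172, 0.0545 and 0.0784). Of the 8 members, Abca12 alone showed the pattern, on its brighter probe only and with KO replicates 1 and 2 near or under the background limit.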
